A study of Mus musculus with 10 samples.

Results

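The 10 genes described here encode the enzymes and chaperones that hydroxylate and fold procollagen in the endoplasmic reticulum: P4ha3, P4hb, Plod1, Plod2, Plod3, P3h1, Crtap, Ppib, Serpinh1 and Fkbp10. They were found by gene symbol, and each matched 1 of the 28165 genes of the deposited count table. All 10 passed the filter on low counts, which kept 15718 genes. The samples were smooth muscle cells of the mouse embryonic aorta at embryonic day 15.5, in 5 libraries of Eln-/- cells, which lack elastin, and 5 libraries of Eln+/+ cells. Embryos of both genotypes came from crosses of Eln+/- parents and carried a green fluorescent Acta2 reporter. Live reporter-positive cells without the endothelial surface protein CD31 were sorted from collagenase-digested aorta, and none were treated. The labels do not give the Eln allele, the number of embryos per library or whether replicates are separate embryos, and p-values therefore reflect the spread of these libraries alone, part of which may be technical.

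Collagen chains enter the endoplasmic reticulum as they are made. There, prolyl 4-hydroxylase, a complex of catalytic alpha subunits (P4ha1, P4ha2 or P4ha3) with P4hb, hydroxylates prolines and so makes the triple helix stable at body temperature. Lysyl hydroxylases (Plod1, Plod2, Plod3) modify lysines that later carry sugars or cross-links, the P3h1, Crtap and Ppib complex hydroxylates single prolines and helps the chains fold, and Serpinh1 (also called Hsp47) binds the finished helix on its way out. Mouse embryos without Serpinh1 die with ruptured blood vessels, and human mutations in several of these genes cause brittle bone or connective tissue disease.

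Total counts ranged from 28367714 to 56371424 in Eln-/- libraries and from 26951681 to 63866346 in Eln+/+ libraries. The genotype label was checked on Eln itself, which had 36, 1, 0, 1 and 0 counts in Eln-/- replicates 1 to 5, against 2409, 105866, 8603, 49878 and 31530 counts in Eln+/+ replicates 1 to 5. The adjusted p for Eln was 0.152 by the quasi-likelihood test of edgeR, and it ran from 1.26e-20 to 1.00 over 21 alternative settings. Eln-/- replicates 4 and 5 and Eln+/+ replicate 1 stood apart. At least 1 count was found for 15595, 15925 and 15089 genes in them, whereas the other 7 libraries held 18157 to 22951 such genes. CT010467.1, a ribosomal RNA gene, took 5.52% to 5.99% of their counts and 0.225% to 2.96% elsewhere. Results are therefore given with and without these 3 libraries. Levels are given as CPM, read counts scaled to a common library size with TMM factors. The 8 smooth muscle markers summed to 1169 to 3884 CPM in Eln-/- and 962 to 2454 CPM in Eln+/+ libraries. Summed levels of 8 markers of fibroblasts, which also make collagen, were 1414 to 3034 CPM in Eln-/- and 2541 to 4987 CPM in Eln+/+ libraries. On the CPM scale, without length scaling, they lay above the smooth muscle sums in Eln+/+ libraries, while the ranges overlapped in Eln-/- libraries. Transcript lengths differ between the lists, so which list had more transcripts cannot be read from these sums. Summed levels of 8 endothelial markers were 23.8 to 53.0 CPM in Eln-/- and 14.7 to 79.8 CPM in Eln+/+ libraries. Those of 8 leukocyte markers reached 8.06 CPM in Eln-/- and 15.5 CPM in Eln+/+ libraries. Those of 8 erythroid markers ran from 22.3 to 5162 CPM in Eln-/- and from 331 to 18909.5 CPM in Eln+/+ libraries. Of 6 chondrocyte markers, Matn1 was at 0 in all libraries, and the summed level was 1.88 to 85.4 CPM in Eln-/- and 4.36 to 153 CPM in Eln+/+ libraries. Sums of 6 cardiomyocyte markers reached 117 CPM in Eln-/- and 247 CPM in Eln+/+ libraries, and sums of 5 glial markers reached 45.9 CPM in Eln-/- and 58.3 CPM in Eln+/+ libraries. Whether other cells or the sorted cells themselves made these transcripts, and their part in the results below, was not tested.

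Across the 10 genes, 0 passed an adjusted p of 0.05 between Eln-/- and Eln+/+ cells by the quasi-likelihood test of edgeR, against 0 of 15718 genes tested (0%). None of the 10 was under an unadjusted p of 0.05, against 81 genes (0.515%). DESeq2 called 0 of the 10, against 6 of 15718 filtered genes and 28 of 27254 genes without the filter. With limma-voom 0 of the 10 were called, against 2 of 15718 genes, and against 7 of 15718 with sample quality weights. Of the edgeR fold changes, 5 were positive and 5 negative, with a median log2 fold change of 0.03, beside 0.02 over all genes tested. In 0 of the 10 genes were the libraries of the genotypes free of overlap, against 0.305% of all genes tested (0.14% higher and 0.165% lower in Eln-/-). A p above the threshold does not show equal levels. The 95% interval of the ratio of Eln-/- to Eln+/+ levels ran from 0.503 to 2.53 for Ppib, the narrowest, and from 0.324 to 23.7 for P4ha3, the widest. Without the 3 libraries that stood apart, 0 of 10 passed against 0 of 17509 genes (0%), 7 fold changes were positive and 3 negative, and their median was 0.27, beside 0.04 over all genes tested. With single libraries left out, the median of the 10 genes ran from -0.47 to 0.26. It was lowest without Eln-/- replicate 1 (beside -0.13 over all genes tested) and highest without Eln-/- replicate 4 (beside 0.0008 over all genes tested). Eln-/- replicate 1 held the highest level of 7 of the 10 genes, so a lower median without it was fixed in advance. How many of all genes were highest there was not counted.

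**Figure D1:**
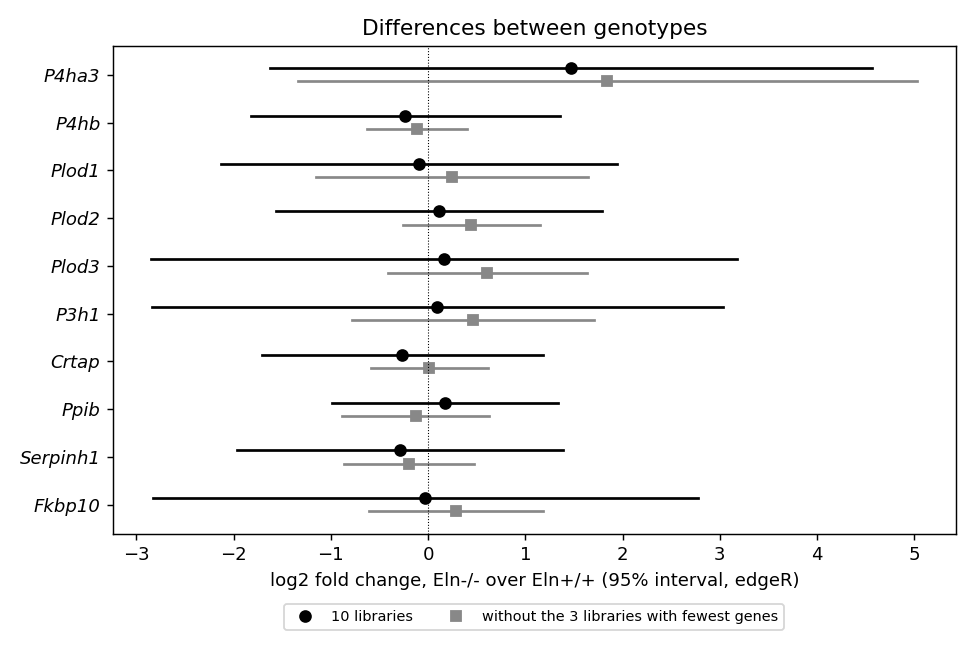
Log2 fold change of Eln-/- over Eln+/+ for each gene with its 95% interval from edgeR, for 10 libraries (black circles) and without the 3 libraries that stood apart (grey squares). Each interval includes 0, and grey intervals are narrower except for P4ha3.

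On TMM-scaled CPM, Ppib was high where Serpinh1 and P4hb were both low, in Eln-/- replicate 4 and Eln+/+ replicate 1. On total counts Ppib was at 590 and 713 CPM there, within the 439 to 811 CPM of the libraries that did not stand apart. The promoters of Serpinh1, P4hb and Ppib are printed here because of that first pattern and because these are the most abundant members. Each runs 5′ to 3′ from 250 bases before to 50 after the RefSeq gene start (GRCm38.p6, the same assembly as mm10), at chr7:99353190-99353489 on the minus strand, chr11:120573204-120573503 on the minus strand and chr9:66059919-66060218 on the plus strand. Capitals mark 3 short words on either strand. The word CCAAT is the first end of the element bound under endoplasmic reticulum stress, the word CCACG is its other end, and the word ACGTG is a core recognised by hypoxia-inducible factor.
Serpinh1: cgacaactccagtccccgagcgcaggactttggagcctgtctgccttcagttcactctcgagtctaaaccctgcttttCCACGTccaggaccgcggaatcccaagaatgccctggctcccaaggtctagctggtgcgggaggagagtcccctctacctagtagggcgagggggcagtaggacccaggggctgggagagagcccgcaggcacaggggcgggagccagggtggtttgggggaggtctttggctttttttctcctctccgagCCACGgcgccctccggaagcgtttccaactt
P4hb: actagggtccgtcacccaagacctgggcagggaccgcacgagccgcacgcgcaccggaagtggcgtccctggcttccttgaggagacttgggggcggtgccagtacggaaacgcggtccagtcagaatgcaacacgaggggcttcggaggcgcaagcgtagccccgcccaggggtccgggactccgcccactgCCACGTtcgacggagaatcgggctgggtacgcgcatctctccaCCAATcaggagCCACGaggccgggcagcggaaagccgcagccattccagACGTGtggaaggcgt
Ppib: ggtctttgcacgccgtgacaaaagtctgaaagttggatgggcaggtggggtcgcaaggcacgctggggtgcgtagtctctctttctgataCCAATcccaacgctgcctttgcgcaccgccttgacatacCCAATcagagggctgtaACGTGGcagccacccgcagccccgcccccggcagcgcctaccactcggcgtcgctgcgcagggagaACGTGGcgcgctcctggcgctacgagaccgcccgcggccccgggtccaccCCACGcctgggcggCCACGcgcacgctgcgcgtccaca

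The RefSeq promoter table held 9 promoters of 8 members, with 2 starts for P3h1 and none for Plod2 and Fkbp10. CCAAT was found in 5 of the 9 promoters, against 37.4% of all 32851 promoters of that length, and CCACG in 7 of 9, against 32.8%. ACGTG was in 5 of 9, against 19.6%, and where a T follows CCACG or an A precedes CGTGG the same bases match both words, as at 1 place in Serpinh1, 1 in P4hb and 2 in Ppib. GGGCGG, the word bound by Sp factors, was in 8 of 9, against 35.7%. GAANNTTC, a pair of heat shock factor words, was in 1 of 9, that of Plod1, against 7.86%. The complete stress element, CCAAT and CCACG with 9 bases between them, was in 0 of 9 and in 0.119% of all promoters. Its second form, ATTGG and CCACG with 1 base between them, was in 0 of 9 and in 0.0365%. With P3h1 counted once, CCAAT was in 4 of 8 members, CCACG in 6, ACGTG in 5 and GGGCGG in 7. The shares over all promoters were not matched for base composition, and its part in these counts was not tested. Both strands were searched, and these are matches of letters in a window, not binding sites.

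Serpinh1, the collagen-specific chaperone, was by far the most abundant member, and its level did not separate the genotypes. Its gene spans chromosome 7, 99345376 to 99353239 (minus strand, mm10). Serpinh1 was at 7341, 7408, 8414, 1029 and 6618 CPM in Eln-/- replicates 1 to 5, against 1515, 6562, 10706, 10336 and 8482 CPM in Eln+/+ replicates 1 to 5. Both genotypes held 1 low library, Eln-/- replicate 4 and Eln+/+ replicate 1, and the others overlapped. Serpinh1 took 0.050% to 1.25% of all counts in a library. Its log2 fold change was -0.29 (SE 0.77, 95% interval -1.96 to 1.39), with an adjusted p = 1.00 by the quasi-likelihood test of edgeR. Without the 3 libraries that stood apart it was -0.20 (95% interval -0.87 to 0.47), which spans from 0.548 to 1.38 times the Eln+/+ level. In these bulk samples fewer cells of a type and less RNA per cell cannot be told apart.

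Serpinh1 was spread over a narrower range than the collagen chains it serves. Among the 7 libraries other than the 3 that stood apart it ranged 1.63-fold, from 6562 to 10706 CPM, while the summed main fibrillar chains ranged from 1768 to 17131 CPM. The summed level of Col1a1, Col1a2 and Col3a1, the main chains of fibrillar collagen, was 17131, 3319, 1768, 405 and 369.7 CPM in Eln-/- replicates 1 to 5, against 381, 8520.2, 3684, 7042 and 2212 CPM in Eln+/+ replicates 1 to 5. The ratio of Serpinh1 to that sum, on the CPM scale without length scaling and so read only between libraries, ran from 0.429 in Eln-/- replicate 1 to 17.9 in Eln-/- replicate 5, and from 0.770 in Eln+/+ replicate 2 to 3.97 in Eln+/+ replicate 1. Eln-/- replicate 5 had a low collagen sum and a Serpinh1 level of 6618 CPM, whereas Eln-/- replicate 4 and Eln+/+ replicate 1 were low in both.

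**Figure D2:**
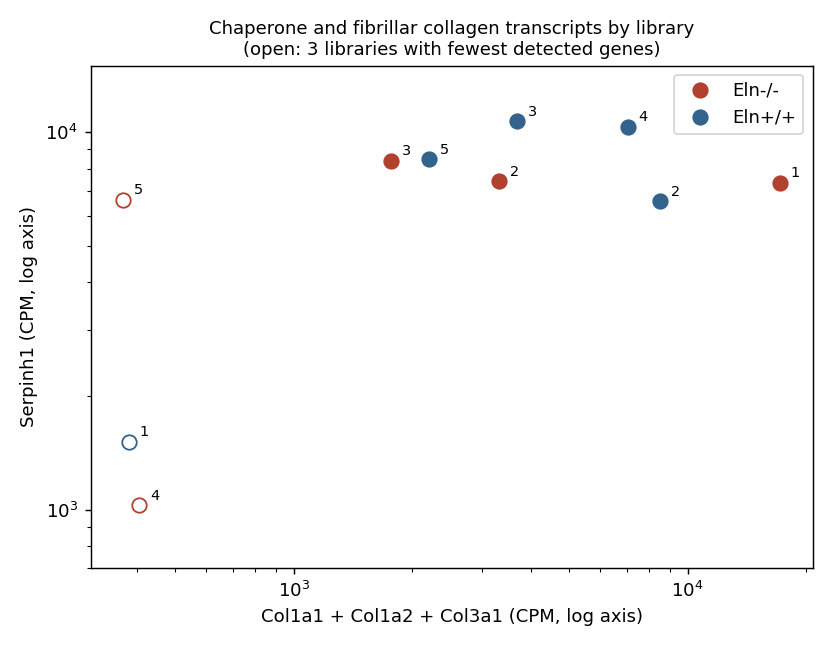
Serpinh1 level against the summed level of Col1a1, Col1a2 and Col3a1, both in CPM on log axes, 1 point per library with its replicate number, Eln-/- in red and Eln+/+ in blue, open for the 3 libraries with the fewest detected genes. Filled points lie between 6562 and 10706 CPM of Serpinh1 while the collagen sum ranges from 1768 to 17131 CPM.

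Fkbp10, a prolyl isomerase that helps fold collagen and works with Plod2, spans chromosome 11, 100415697 to 100424824 (plus strand). It was at 356, 168, 169, 0 and 63.3 CPM in Eln-/- replicates 1 to 5, against 4.63, 216, 119.9, 252.4 and 179 CPM in Eln+/+ replicates 1 to 5. Eln-/- replicate 4 had 0 counts, which allows up to 0.218 CPM at 3 counts (counting error only), and Eln+/+ replicate 1 had 70 counts. Apart from these, libraries of both genotypes overlapped. For Fkbp10 the log2 fold change was -0.03 (SE 1.28, 95% interval -2.83 to 2.77), and 0.29 (95% interval -0.61 to 1.18) without the 3 libraries that stood apart. A stretch of its exons, 6.6% of their length, overlaps Nt5c3b on the other strand, and reads there cannot be assigned because the strand setting of the counts is unknown.

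P4hb, a protein disulfide isomerase that also holds the prolyl 4-hydroxylase alpha subunits in the endoplasmic reticulum, had the smallest range of the 10 genes across the 7 other libraries. Its gene spans chromosome 11, 120560298 to 120573253 (minus strand). P4hb was at 1274, 1318, 1338, 134 and 956 CPM in Eln-/- replicates 1 to 5, against 142, 1210.1, 1372, 1634 and 1546 CPM in Eln+/+ replicates 1 to 5. The low libraries were Eln-/- replicate 4 and Eln+/+ replicate 1, as for Serpinh1. In the 7 libraries other than the 3 that stood apart, P4hb ranged 1.35-fold, and the SD of its log2 CPM, 0.15, was the 8th lowest among the 811 genes whose average log2 CPM reached 8, whose median SD was 0.60. On CPM from total counts it was the 6th lowest, at 0.12. For P4hb the log2 fold change was -0.23 (SE 0.73, 95% interval -1.82 to 1.35), and -0.11 (SE 0.22, 95% interval -0.63 to 0.40) without the 3 libraries.

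P4ha3, a catalytic alpha subunit of prolyl 4-hydroxylase, had the highest fold change of the 10 genes and the widest range in the 7 other libraries, at 1517-fold. It spans chromosome 7, 100285520 to 100319699 (plus strand). P4ha3 was at 123, 33.3, 11.1, 3.85 and 3.39 CPM in Eln-/- replicates 1 to 5, against 0.132, 27.95, 0.0812, 18.0 and 16.8 CPM in Eln+/+ replicates 1 to 5. Eln-/- replicate 1 stood above the rest with 8992 counts, while Eln+/+ replicates 1 and 3 had 2 and 4 counts. Eln+/+ replicate 3 was not among the libraries that stood apart, with 18157 genes detected. For P4ha3 the log2 fold change was 1.47 (SE 1.42, 95% interval -1.63 to 4.57), with an unadjusted p of 0.320 and an adjusted p of 1.00 by the quasi-likelihood test of edgeR. Without Eln-/- replicate 1 it was 0.03, and without the 3 libraries that stood apart it was 1.84 (95% interval -1.34 to 5.03).

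The other alpha subunits, P4ha1 and P4ha2, are not among the 10 genes but share their partner P4hb with P4ha3. P4ha1 averaged 108 ± 87.2 CPM in Eln-/- and 121 ± 79.7 CPM in Eln+/+ libraries (SD, n = 5 each), with a log2 fold change of -0.16 (SE 0.97). P4ha2 averaged 97.3 ± 72.4 CPM in Eln-/- and 126 ± 78.9 CPM in Eln+/+ libraries, with a log2 fold change of -0.38 (SE 0.97). Scaled by the length of the principal transcript, P4ha3 made up 28.2%, 12.6%, 4.86%, 33.7% and 5.13% of the alpha subunit transcripts in Eln-/- replicates 1 to 5, against 0.939%, 10.2%, 0.0280%, 5.12% and 10.8% in Eln+/+ replicates 1 to 5. The mean share was 16.9% ± 13.3 in Eln-/- and 5.43% ± 5.04 in Eln+/+ libraries (SD, n = 5 each), and the genotypes overlapped. That difference of 11.5 percentage points had p = 0.127 in a two-sided exact permutation test (adjusted p = 0.635 over the 8 shares and ratios compared, smallest possible unadjusted p 0.00794). Shares in Eln-/- replicate 4 and Eln+/+ replicate 1 rest on 221 and 213 counts of the 3 genes together. Without the 3 libraries that stood apart the means were 15.2% in Eln-/- and 6.55% in Eln+/+ libraries (exact permutation p = 0.286). P4hb exceeded the summed alpha subunits in every library, at 2.41 to 11.9 times in Eln-/- and 3.65 to 8.31 times in Eln+/+ libraries, per length. P4hb also acts outside this complex.

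The lysyl hydroxylases were led by Plod2, which hydroxylates lysines in the telopeptides at the ends of the helix. Plod2 spans chromosome 9, 92542223 to 92608428 (plus strand), and was at 307, 169, 162, 36.6 and 27.5 CPM in Eln-/- replicates 1 to 5, against 12.6, 164, 202, 140.3 and 130.4 CPM in Eln+/+ replicates 1 to 5. The 3 libraries that stood apart were below each of the others, and the rest overlapped between genotypes. For Plod2 the log2 fold change was 0.11 (SE 0.77, 95% interval -1.56 to 1.79), and 0.45 (SE 0.30, 95% interval -0.26 to 1.15) without those libraries. Exons of Plod2 overlap the gene model Gm38391 on the other strand over 6.4% of their length.

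Plod1, which hydroxylates lysines within the helix, spans chromosome 4, 147909753 to 147936767 (minus strand). It ranged from 0.799 to 96.7 CPM in Eln-/- (median 30.3) and from 7.87 to 76.8 CPM in Eln+/+ libraries (median 27.2), with a log2 fold change of -0.09 (SE 0.93, 95% interval -2.13 to 1.95), and 0.25 (95% interval -1.15 to 1.64) without the 3 libraries that stood apart. Plod3, which also adds sugars to hydroxylysine, spans chromosome 5, 136987019 to 136996648 (plus strand). It ranged from 0 to 65.3 CPM in Eln-/- (median 27.2) and from 1.19 to 38.9 CPM in Eln+/+ libraries (median 20.3), with a log2 fold change of 0.17 (SE 1.38, 95% interval -2.85 to 3.18), and 0.61 (95% interval -0.42 to 1.63) without those libraries. The 0 of Plod3 was in Eln-/- replicate 5, where up to 0.113 CPM would go unseen at 3 counts. Exons of Plod3 overlap Znhit1 on the other strand over 11.7% of their length.

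Per length, Plod2 supplied most lysyl hydroxylase transcripts in each of the 10 libraries. Its share was 62.9%, 66.7%, 69.0%, 95.7% and 56.4% in Eln-/- replicates 1 to 5, against 55.2%, 56.4%, 81.2%, 52.5% and 72.3% in Eln+/+ replicates 1 to 5. The mean was 70.2% ± 15.1 in Eln-/- and 63.5% ± 12.5 in Eln+/+ libraries (SD, n = 5 each, p = 0.508 in a two-sided exact permutation test, adjusted p = 0.689). Without the 3 libraries that stood apart the means were 66.2% in Eln-/- and 65.6% in Eln+/+ libraries (exact permutation p = 0.971). Plod1 supplied 20.8% ± 15.0 in Eln-/- and 25.3% ± 11.8 in Eln+/+ libraries, and Plod3 supplied 9.04% ± 7.59 in Eln-/- and 11.1% ± 3.95 in Eln+/+ libraries. Neither difference passed the exact permutation test (p = 0.603 for Plod1 and p = 0.587 for Plod3). Shares in Eln-/- replicates 4 and 5 and Eln+/+ replicate 1 rest on 524, 1231 and 327 counts of the 3 genes together.

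**Figure D3:**
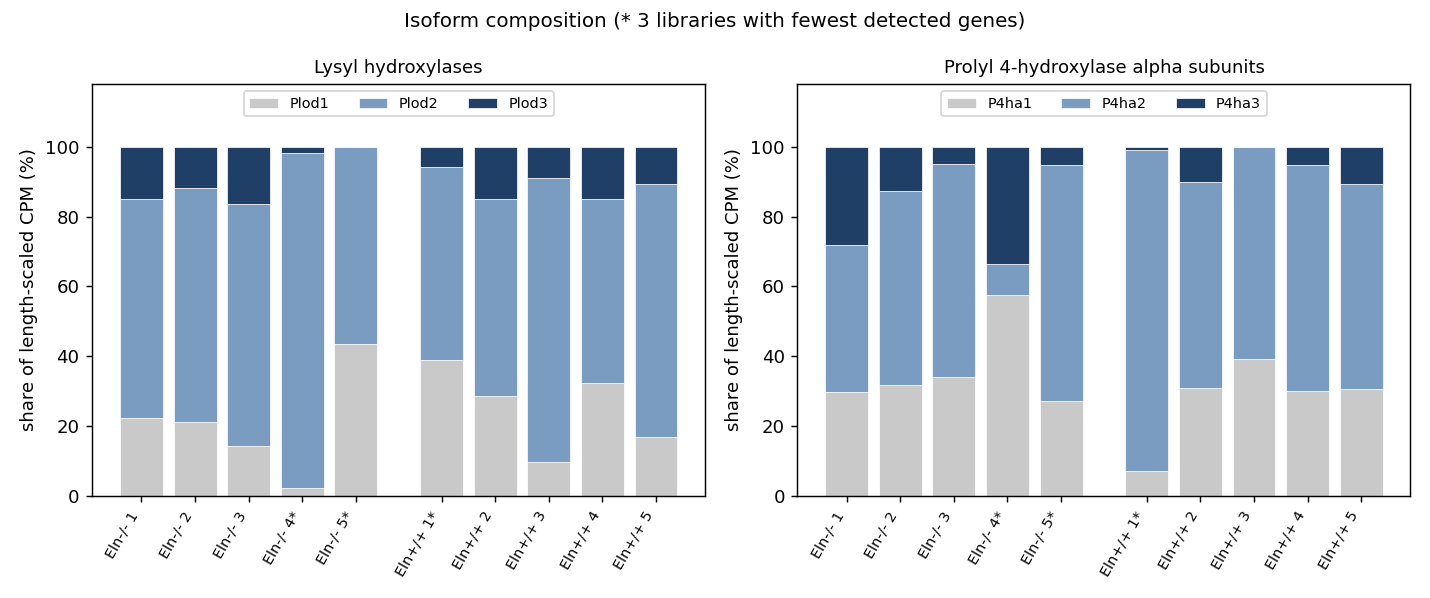
Shares of length-scaled CPM, in percent, of the lysyl hydroxylases Plod1, Plod2 and Plod3 (left) and of the prolyl 4-hydroxylase alpha subunits P4ha1, P4ha2 and P4ha3 (right), 1 stacked bar per library, Eln-/- left of Eln+/+ in each panel, with asterisks at the 3 libraries with the fewest detected genes. Plod2 is the broadest band in each library, at 52.5% to 95.7%, and the P4ha3 band ranges from 0.0280% to 33.7%.

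The prolyl 3-hydroxylase complex joins the enzyme P3h1, the partner protein Crtap, on which P3h1 depends for its stability, and Ppib, also called cyclophilin B, which speeds the turning of proline bonds. Crtap spans chromosome 9, 114375134 to 114390675 (minus strand), and was at 212, 143, 116, 14.1 and 66.5 CPM in Eln-/- replicates 1 to 5, against 29.6, 171, 148, 146 and 167 CPM in Eln+/+ replicates 1 to 5. Its log2 fold change was -0.26 (SE 0.66, 95% interval -1.71 to 1.18), and 0.01 (95% interval -0.59 to 0.61) without the 3 libraries that stood apart. P3h1 spans chromosome 4, 119232915 to 119248975 (plus strand), and was at 317, 127, 61.0, 0.508 and 26.9 CPM in Eln-/- replicates 1 to 5, against 0.0661, 143, 88.8, 159 and 108 CPM in Eln+/+ replicates 1 to 5. Eln-/- replicate 4 and Eln+/+ replicate 1 held 7 counts and 1 count of P3h1, although they held 194 and 448 counts of Crtap. For P3h1 the log2 fold change was 0.10 (SE 1.34, 95% interval -2.84 to 3.03), and 0.46 (95% interval -0.78 to 1.70) without the 3 libraries. The ratio of P3h1 to Crtap per length was 0.377 ± 0.311 in Eln-/- and 0.357 ± 0.227 in Eln+/+ libraries (SD, n = 5 each, p = 0.921 in a two-sided exact permutation test, adjusted p = 0.921). Without the 3 libraries that stood apart the ratio averaged 0.546 in Eln-/- and 0.446 in Eln+/+ libraries (exact permutation p = 0.629, adjusted p = 0.914).

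Ppib did not share the low levels of the other members. It spans chromosome 9, 66060222 to 66066623 (plus strand), and was at 339, 493, 663, 1215 and 1214 CPM in Eln-/- replicates 1 to 5, against 1271, 356, 558, 576 and 716 CPM in Eln+/+ replicates 1 to 5. The 3 libraries with the fewest detected genes held the highest values, in both genotypes. With CPM on total counts that order was lost. Ppib then stood at 439, 649.7, 769, 589.8 and 1027 in Eln-/- replicates 1 to 5, against 713, 486, 640.5, 696 and 811 in Eln+/+ replicates 1 to 5. The ratio of Ppib to Serpinh1 on the CPM scale, which no scaling of libraries affects and which is read only between libraries, was 0.0461, 0.0666, 0.0788, 1.18 and 0.183 in Eln-/- replicates 1 to 5, against 0.839, 0.0542, 0.0521, 0.0558 and 0.0845 in Eln+/+ replicates 1 to 5. It was highest in the same 3 libraries. For Ppib the log2 fold change was 0.17 (SE 0.53, 95% interval -0.99 to 1.34), the narrowest interval of the 10 genes, and -0.13 (95% interval -0.88 to 0.63) without those libraries. A run of its annotated exons, 25.0% of their length, overlaps Snx22 on the other strand.

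**Figure D4:**
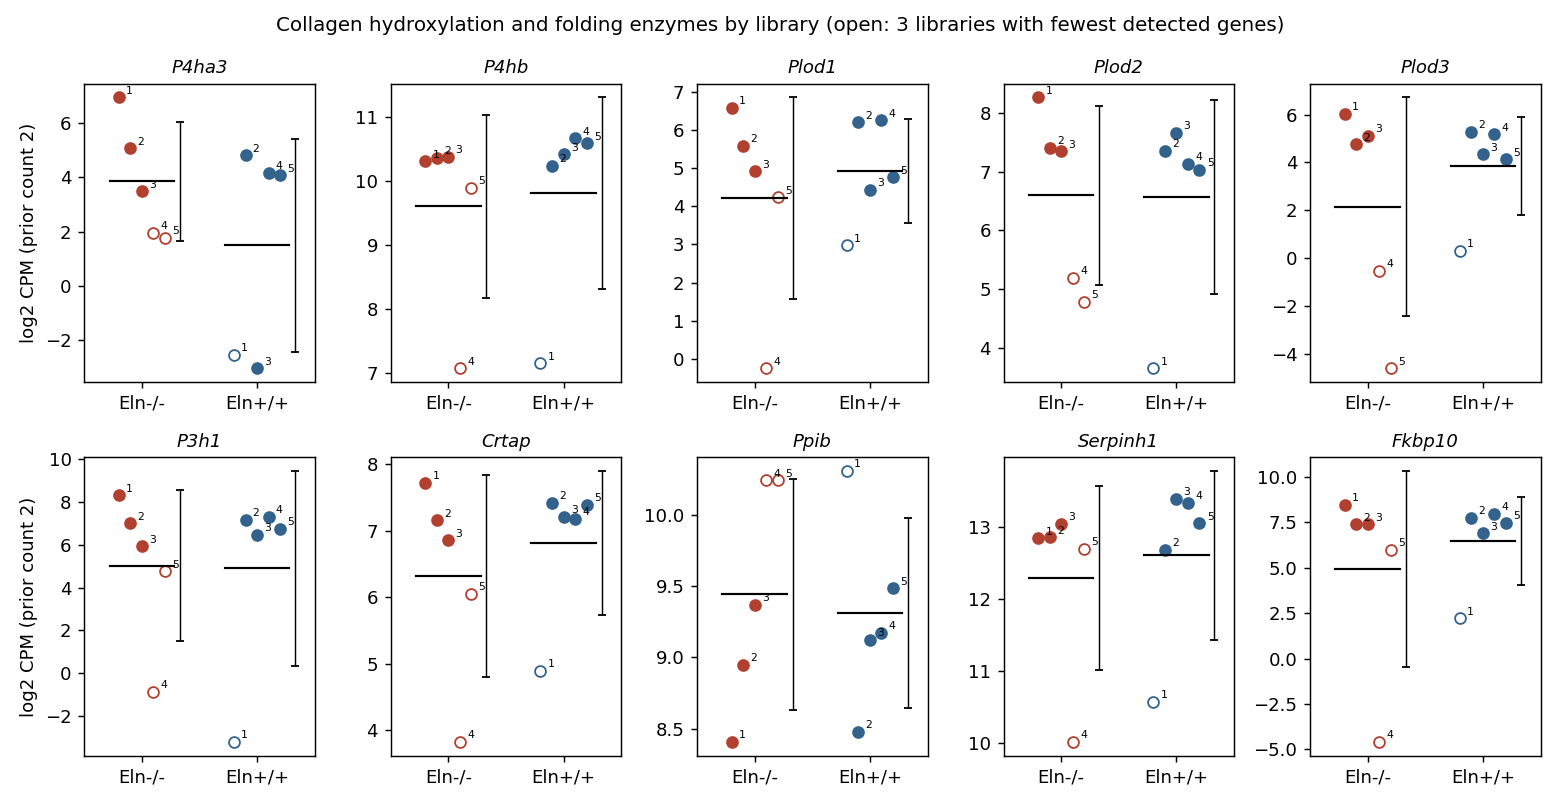
Log2 CPM (prior count 2) of the 10 genes, 1 panel per gene, Eln-/- left and Eln+/+ right, 1 point per library with its replicate number, open for the 3 libraries with the fewest detected genes, with the mean as a horizontal bar and the SD as a vertical bar. Open points are the lowest in 7 panels and the highest in the Ppib panel, and the genotypes overlap in each panel.

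The 3 libraries with the fewest detected genes were below each of the other 7 for P4hb, Plod1, Plod2, Plod3, P3h1, Crtap and Fkbp10, that is 7 of 10 genes, where 21.5% of all genes tested behaved so. The same libraries were above each of the others for Ppib, 1 of 10, where 16% of all genes tested behaved so. With CPM on total counts Serpinh1 joined the lower genes, for 8 of 10 against 32.5%, and Ppib no longer stood above, for 0 of 10 against 9.46%. The 3 libraries were not alike. Eln-/- replicate 5 kept 6618 CPM of Serpinh1 and 956 CPM of P4hb, while its Plod2 was at 27.5 CPM, and the mean log2 CPM of the 10 genes was 5.58 there, 3.21 in Eln-/- replicate 4 and 3.63 in Eln+/+ replicate 1, while the other 7 libraries had 6.69 to 8.39. Erythroid markers summed to 619 to 18909.5 CPM in these 3 libraries and 22.3 to 1361 CPM in the other 7. Glial markers summed to 3.24 to 58.3 CPM in these 3 and 2.87 to 14.3 CPM in the other 7. Their part in the low levels was not tested.

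**Figure D5:**
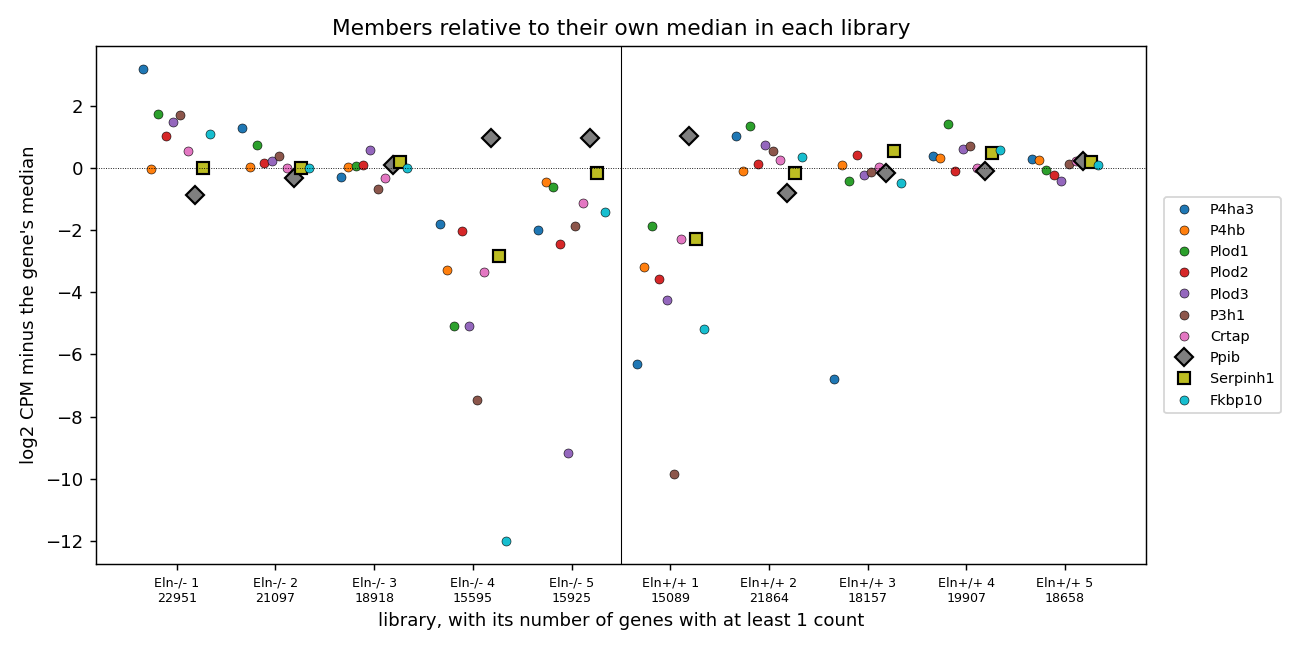
Log2 CPM of each gene minus its median over the 10 libraries, by library, Eln-/- left and Eln+/+ right, with the number of genes that had at least 1 count printed under each library, Ppib as diamonds and Serpinh1 as squares. In the libraries with 15595, 15925 and 15089 genes, Ppib lies above its median and the other genes lie below theirs.

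The order of the levels of the 10 genes is given per kilobase of the principal transcript. Medians over the 10 libraries ran from Serpinh1 (3243 CPM per kb) through Ppib (695), P4hb (453), Crtap (86.2), Fkbp10 (65.1), Plod2 (41.5), P3h1 (32.98), Plod1 (8.87) and Plod3 (7.23) to P4ha3 (5.91). The order was the same in the 7 libraries other than the 3 that stood apart. In those 7, Serpinh1 at 2885 to 4708 CPM per kb lay above Ppib at 379.8 to 803, which overlapped P4hb at 423 to 571, and P4hb lay above Crtap at 69.2 to 126.5 CPM per kb. From Crtap through Fkbp10, Plod2, P3h1, Plod1 and Plod3 to P4ha3, each gene overlapped the next in that order. Parts of the order depended on the length used. With the union of all annotated exons, Ppib at 187 CPM per kb stood below P4hb at 453, and Plod1 at 4.25 CPM per kb came last, after Plod3 at 5.25 and P4ha3 at 4.45 (medians over 10 libraries). With that length P3h1 at 33.1 CPM per kb also stood above Plod2 at 30.4 in the 7 libraries.

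The genes whose pattern over the 10 libraries was closest to that of Serpinh1 were Oat, Pea15a, Ddrgk1, Pgam1 and Psmc3. The SD of Serpinh1 log2 CPM was 1.17 over the 10 libraries and 0.26 without the 3 that stood apart. Its pattern therefore rests largely on the libraries where it was low, and closeness in the other 7 was not measured. The measure was the mean absolute difference of log2 CPM centred on each gene's mean, and it was 0.10 for Oat, an enzyme of ornithine metabolism that feeds proline synthesis, and 0.17 for Pea15a. It was 0.18 for Ddrgk1, 0.19 for the glycolytic enzyme Pgam1 and 0.19 for the proteasome subunit Psmc3, beside a median of 1.10 over the 4287 genes whose average log2 CPM reached 5. Oat averaged 462 ± 229 CPM in Eln-/- and 540.2 ± 277 CPM in Eln+/+ libraries (SD, n = 5 each). Among the members P4hb was closest to Serpinh1, at 0.23 with 30 other genes nearer. Crtap followed at 0.39 with 253 nearer, and P4ha3 was farthest at 2.22 with 4080 nearer.

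Other genes of collagen maturation showed no called difference either, against 0 of 15718 genes tested (0%). The medians of the lists below stand beside a median log2 fold change of 0.02 over all genes tested. Among 11 further modification and folding enzymes, 10 were tested, 0 passed in either direction, and the median log2 fold change was -0.11, with 3 positive and 7 negative. The 11 genes summed to 516 to 855 CPM in the 3 libraries that stood apart, below the 1147 to 1899.6 CPM of the other 7. The highest mean CPM, not scaled for length, belonged to the cyclophilin Ppic, at 268 ± 109.6 CPM in Eln-/- against 274 ± 81.5 CPM in Eln+/+ libraries, and the isomerases Fkbp9 and Fkbp14. Fkbp9 averaged 175 ± 137 CPM in Eln-/- against 230.2 ± 136 CPM in Eln+/+ libraries, and Fkbp14 averaged 131 ± 72.7 CPM in Eln-/- against 181 ± 75.5 CPM in Eln+/+ libraries (SD, n = 5 each). In general endoplasmic reticulum folding, 0 of 15 genes passed and the median was 0.12, with 9 positive and 6 negative. The 15 genes summed to 1506 to 2516 CPM in the 3 libraries that stood apart, below the 4092 to 9914 CPM of the other 7. Hspa5, the main chaperone of that compartment, averaged 1112 ± 1449.6 CPM in Eln-/- against 989 ± 616 CPM in Eln+/+ libraries. Pdia3, a disulfide isomerase like P4hb, averaged 905 ± 644 CPM in Eln-/- against 1003 ± 511 CPM in Eln+/+ libraries. Pdia6, of the same family, averaged 681 ± 317 CPM in Eln-/- against 744 ± 327 CPM in Eln+/+ libraries.

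In procollagen export and processing, 0 of 16 tested genes passed, and the median was 0.13. The summed level of all 18 genes was 2975 to 3895 CPM in Eln-/- and 2803 to 3656 CPM in Eln+/+ libraries. The 3 libraries that stood apart had sums of 2931 to 3895 CPM, which overlapped the 2803 to 3656 CPM of the others. Sar1a, a GTPase of vesicle budding, averaged 737 ± 229 CPM in Eln-/- against 728 ± 234 CPM in Eln+/+ libraries, and the retrieval receptors Kdelr3 and Kdelr2 were at 694 ± 354 and 431 ± 87.6 CPM in Eln-/-, against 584 ± 167 and 520.2 ± 154 CPM in Eln+/+ libraries. Of 13 collagen chains, 0 passed, 11 fold changes were positive and 2 negative, and the median was 0.45. Their summed level was 426 to 513 CPM in the 3 libraries that stood apart, while it was 1876 to 19101 CPM elsewhere. Col1a1 averaged 2570.1 ± 4048 CPM in Eln-/- against 2318 ± 1990.4 CPM in Eln+/+ libraries, and Col1a2 averaged 1183 ± 1685 CPM in Eln-/- against 1342 ± 936 CPM in Eln+/+ libraries. The sum of Col1a1, Col1a2 and Col3a1 was uneven within Eln-/-. Replicate 1 held 17131 CPM, while replicates 2 to 5 held 3319, 1768, 405 and 369.7 CPM. Eln+/+ sums of these chains lay between 381 and 8520.2 CPM. How far the positive fold changes of the 13 chains rest on Eln-/- replicate 1 was not tested.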

How the data were processed

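The authors deposited 1 table of estimated counts per gene and library, not scaled for library size. STAR, DESeq2 and the build mm10 are named in the submitters' processing notes, while the sources used here give no counting program, annotation or strand setting. From 23.5% to 48.8% of values per library were not whole (tolerance 1e-06), so counts were rounded. Spans, taken with the end 1 base lower, matched GENCODE mouse release 21 for 27876 of 28165 genes (99.0%), and lengths came from that release. Genes were kept by edgeR's filterByExpr and scaled with TMM factors. Eln-/- was compared with Eln+/+ by edgeR's quasi-likelihood test (glmQLFTest, two-sided, genotype only, Benjamini-Hochberg over all genes, threshold 0.05). SE was the log2 fold change over the square root of F, and 95% intervals used its t quantile. Shares and ratios, chosen after seeing the data, were compared by exact permutation over all assignments, adjusted over 8. The procedure was tested on simulated data, and at the spread observed here it missed most of the differences put in. It recovered 0 of 200 differences of 2-fold, 0 of 200 of 4-fold, 7 of 200 of 8-fold, 36 of 200 of 16-fold and 87 of 200 of 64-fold. Genes were drawn independently of each other, so shifts shared by many genes of a library were not simulated. Alternatives were DESeq2, limma-voom (with and without quality weights), other scalings, no filter, a replicate block and left-out libraries. Named genes were the 10 members, Eln, P4ha1 and P4ha2, the 3 most abundant genes of each pathway list, the 5 genes most like Serpinh1 and the 2 most abundant of each marker list, of which only those needed are printed. Promoters came from RefSeq (GRCm38.p6). The members and lists were chosen with earlier results of these data known. Floors at 3 counts cover counting error only. The software was edgeR 4.0.16, DESeq2 1.42.0 and limma 3.58.1, run in R 4.3.3.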

Additional observations from a re-analysis of the deposited data

Results flagged for a closer look

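Libraries far from the others of their genotype were found in 8 of 38 groups of 5 values, by a gap to the nearest value above 0.71 of the group's range. About 1 in 20 groups would be flagged among independent, normally distributed values. These groups share the same 10 libraries, and shares within a family depend on each other, so that rate is no measure of chance here. P4ha3 was at 123 CPM in Eln-/- replicate 1, above the 3.39 to 33.3 CPM of the other Eln-/- libraries. P4hb at 142 CPM and Crtap at 29.6 CPM were low in Eln+/+ replicate 1, and Serpinh1 at 1029 CPM was low in Eln-/- replicate 4, both libraries with few detected genes. Eln was at 0.493 CPM in Eln-/- replicate 1, from 36 counts. P4ha1 made up 57.6% of the alpha subunits per length in Eln-/- replicate 4 and 7.13% in Eln+/+ replicate 1, and P4ha2 made up 91.9% in Eln+/+ replicate 1, on 221 and 213 counts of the 3 subunits together.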

How the results depend on the processing

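Over 21 alternatives, 0 of the 10 genes and 0 genes of the pathway lists passed (lowest adjusted p 1.00 and 0.787), and the median log2 fold change of the 10 genes ran from -0.47 to 0.27. Over all genes, DESeq2 called 6 of 15718 filtered genes and 28 of 27254 without the filter, and limma-voom 2 of 15718 and with quality weights 7 of 15718. With edgeR 0 to 1 were called without single replicates (1 of 15951 without Eln-/- replicate 1). It called 1 of 15027 without Eln-/- replicate 1 and Eln+/+ replicate 2 together. The fold changes of P4ha3 (0.03 to 2.74) and Serpinh1 (-0.54 to -0.0062) kept their sign in each alternative. Signs turned for Plod3 (-1.75) and P3h1 (-0.012) with limma-voom, for Plod3 (-0.27), P3h1 (-0.25) and Ppib (-0.037) with quality weights, and for Plod1 (0.25), Crtap (0.013), Ppib (-0.13) and Fkbp10 (0.29) without the 3 libraries with the fewest genes. They turned for Plod2 (-0.29), Plod3 (-0.26) and P3h1 (-0.72) without Eln-/- replicate 1 and Eln+/+ replicate 2 together. With single replicates left out, the range was -0.76 to 0.26 for Plod1, -0.39 to 0.38 for Plod2, -0.54 to 0.49 for Plod3, -0.89 to 0.42 for P3h1, -0.64 to 0.026 for Crtap, -0.040 to 0.53 for Ppib, -0.63 to 0.30 for Fkbp10 and -0.51 to 0.056 for P4hb. Replicate numbers did not pair the libraries, with correlations of deviations for the same number from -0.556 to 0.51, and with the replicate block the signs of Plod2 (-0.34), Plod3 (-1.35) and P3h1 (-0.88) turned and 0 genes passed. Differences in shares and ratios kept adjusted exact permutation p-values of at least 0.317. Without the 3 libraries with the fewest genes the difference turned for the Plod3 share (1.98 percentage points), the P4ha1 share (-0.846) and P4hb per alpha subunit (-1.11), and this ratio differed by -0.39 with the union of exons. With single replicates left out the ratio of P3h1 to Crtap differed by -0.0953 to 0.110, P4hb per alpha subunit by -0.317 to 2.07, and the shares of Plod1 and Plod3 by -10.2 to 0.0949 and -3.95 to 0.171 percentage points. No sign change was past a threshold, and the cause was not tested. Counts of 18 or fewer for P4ha3, Plod1, Plod3, P3h1 or Fkbp10 in single libraries limit what can be said of those values.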

Other observations

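The pathway lists around collagen maturation that are not described above also held no called gene, against 0 of 15718 genes tested (0%, median log2 fold change 0.02). Of 10 hypoxia-responsive genes, 0 passed. There 4 fold changes were positive, 6 were negative, and their median on the log2 scale was -0.04. Ldha, a glycolytic enzyme, averaged 851 ± 429 CPM in Eln-/- against 598 ± 136 CPM in Eln+/+ libraries (SD, n = 5 each). Pgk1, another, averaged 82.6 ± 42.9 CPM in Eln-/- against 75.4 ± 25.1 CPM in Eln+/+ libraries. Hif1a, the oxygen-regulated factor itself, averaged 75.5 ± 67.1 CPM in Eln-/- against 95.4 ± 58.3 CPM in Eln+/+ libraries. Of 6 regulators of secretory stress, 0 passed and the median was 0.33. They summed to 158 to 489.5 CPM in the 3 libraries with few detected genes, below the 649 to 943 CPM of the other 7. Xbp1, a factor of the unfolded protein response, averaged 474 ± 256 CPM in Eln-/- against 516 ± 219.6 CPM in Eln+/+ libraries. Atf4, of the integrated stress response, averaged 67.6 ± 63.8 CPM in Eln-/- against 42.1 ± 23.8 CPM in Eln+/+ libraries. Creb3l2, a factor of secretory genes, averaged 57.7 ± 58.3 CPM in Eln-/- against 41.1 ± 36.2 CPM in Eln+/+ libraries. Of 3 tested genes of cofactor and ion supply, 0 passed. Slc39a13, a zinc transporter whose loss impairs collagen hydroxylation in human connective tissue disease, averaged 37.1 ± 24.7 CPM in Eln-/- against 36.2 ± 21.9 CPM in Eln+/+ libraries. Tmem38b, a cation channel of the endoplasmic reticulum, averaged 31.3 ± 29.4 CPM in Eln-/- against 23.5 ± 11.7 CPM in Eln+/+ libraries. Slc23a2, a transporter of the hydroxylase cofactor ascorbate, averaged 4.58 ± 3.68 CPM in Eln-/- against 5.04 ± 5.32 CPM in Eln+/+ libraries.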
